A study of Mus musculus with 23 samples.

Results

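The SOX factor genes followed here were *Sox7*, *Sox17* and *Sox18* of the SOXF subgroup, *Sox4*, *Sox11* and *Sox12* of the SOXC subgroup and *Sox6* of the SOXD subgroup. Members were taken by gene name, and each was read from the array probe whose RefSeq accession led to that name, or from the brightest such probe. All 7 members had a probe and entered the tests, among 20 SOX family genes on the array, 20145 genes with a probe and 15202 genes tested. RNA labelled with Cy3 alone was hybridised to SurePrint G3 Mouse arrays of Agilent, and values are log2 intensities after background correction and normalization.

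The cells came from mouse embryonic stem (ES) cells of the C57BL/6 strain that carried human RUNX1-ETO (RUNX1T1), the fusion protein of t(8;21) leukaemia, behind a TET-responsive promoter switched on by doxycycline (Dox), with RUNX1 left wild type. The line was made from picked colonies, every group carried the transgene, and Dox-treated cells without it were not analysed here. The 4 stages were haemogenic endothelium (HE, KIT+Tie2+CD41−), HE2 (KIT+Tie2+CD41+), CD41+KIT+Tie2− progenitors, and myeloid progenitors grown from blast culture progenitors in medium with cytokines. In HE, HE2 and progenitors, Dox at 0.1 μg per ml was given at day 1 of blast culture and cells were sorted at day 2, whereas myeloid progenitors were exposed to the same dose for 12 h. Each stage had induced (with Dox) and uninduced (without Dox) arrays, 3 of each, except for 2 uninduced and 2 induced progenitor arrays. A further uninduced progenitor array, whose labels also call it a technical replicate, was kept out of the groups. Sample titles call the grouped arrays biological replicates without naming cultures, and 1 of the 3 induced myeloid progenitor arrays (array 3) carries a technical replicate label as well, so that P values measure the spread between arrays and the induced myeloid group may hold fewer than 3 independent samples.

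SOX proteins bind the minor groove of DNA through a high mobility group domain and act together with partner factors. The SOXF proteins SOX7, SOX17 and SOX18 are regulators of endothelial and arterial identity, and SOX17 is known as a factor of HE that must fall for blood cells to emerge. SOXC proteins are mostly known as activators in progenitor cells of many tissues, and SOX6, which has no activation domain of its own, as a repressor of embryonic globin genes in red cells.

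*Runx1t1*, the mouse gene whose human counterpart forms the ETO part of the fusion, gave a brighter signal with Dox, with no overlap between arrays at any stage, by mean differences on the log2 scale of 1.24 (HE, not past the threshold for a call), 2.08 (HE2), 3.96 (progenitors) and 2.06 (myeloid progenitors). Between 48.8 and 78.4% of the spots of an array were well above background, and arrays of a group correlated at 0.966 to 0.993 across genes. The lowest share was that of induced progenitor array 2, while array 1 of that group had 65.6%. *Itga2b*, which encodes CD41, stood at 10.70 ± 1.06 (SD, n = 3) in uninduced HE, well above background on all 3 arrays although HE was sorted as CD41−, and at 11.81 ± 0.66 (SD, n = 3) in uninduced HE2. In induced cells it stood at 7.49 ± 0.55 (SD, n = 3) in HE and at 9.35 ± 1.52 (SD, n = 3) in HE2, which was sorted as CD41+. *Tek*, which encodes Tie2, stood at 11.95 ± 1.63 (SD, n = 3) in uninduced HE and at 8.67 ± 0.06 (SD, n = 2) in uninduced progenitors. In induced progenitors, also sorted as Tie2−, *Tek* stood at 11.10 ± 0.26 (SD, n = 2). Its level in uninduced HE2, sorted as Tie2+, was 10.67 ± 0.95 (SD, n = 3). HE and HE2 arrays lay on slides 1 and 2 and all myeloid progenitor arrays on slide 3, with induced progenitor array 1 on slide 1 and array 2 on slide 3.

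Promoter sequence was at hand for 4 of the 7 members, *Sox4*, *Sox11*, *Sox12* and *Sox6*. The 250 bases before the start site of *Sox11*, the member that rose with Dox in every stage, and of its SOXC relative *Sox4*, which among the 4 stages passed the test in myeloid progenitors alone, are given here from RefSeq (GRCm38.p6), both on the minus strand and written 5′ to 3′. They lie at chr12:27342719-27342968 and chr13:28953700-28953949. Capitals mark the GATA motif TGATAA. They also mark the E-box letters CAGCTG. Both strands were searched for these and for 5 further motifs. Of these the RUNX motif was read as TGTGGT. A variant of it was read as TGCGGT. The other GATA motif was read as AGATAA. The SOX motif was read as ACAAAG. A shorter and overlapping SOX motif was read as ACAAT.
Sox11: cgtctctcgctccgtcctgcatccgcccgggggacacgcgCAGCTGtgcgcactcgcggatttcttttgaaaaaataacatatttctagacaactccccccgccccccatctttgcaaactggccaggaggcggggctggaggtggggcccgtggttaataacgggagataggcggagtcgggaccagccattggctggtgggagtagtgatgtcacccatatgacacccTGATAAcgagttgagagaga
Sox4: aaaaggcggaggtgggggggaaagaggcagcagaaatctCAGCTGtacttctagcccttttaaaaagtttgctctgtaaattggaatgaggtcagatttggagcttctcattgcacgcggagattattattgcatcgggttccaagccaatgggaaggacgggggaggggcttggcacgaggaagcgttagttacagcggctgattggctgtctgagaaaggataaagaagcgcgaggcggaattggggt

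Each of these windows held 1 E-box, which starts 210 bases before the start site of *Sox11* and 211 bases before that of *Sox4*. The *Sox11* window held a TGATAA as well, starting 20 bases before the start site. CAGCTG was found in 13% of the 32851 promoter windows of the same length and TGATAA in 7.94%. The RUNX motif, present in 14% of all windows, and its variant, present in 5.1%, were found in neither of the 2 windows, nor were the other GATA motif (9.99% of all windows) and the SOX motifs (16.5 and 27.7%). Of the 6 windows of *Sox6*, 2 held TGTGGT, and the 1 window of *Sox12* held none of the 7 motifs. These matches describe letters only, and binding was not analysed here.

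In uninduced cells the SOXF genes were brightest in HE and dimmest in the progenitor stages. *Sox7* stood at log2 intensities of 13.31, 13.50 and 14.31 on the uninduced HE arrays, at 11.97, 12.09 and 11.64 in HE2, at 7.95 and 6.96 in progenitors and at 7.59, 8.65 and 7.94 in myeloid progenitors. The HE, HE2 and progenitor ranges of *Sox7* did not overlap, while progenitors and myeloid progenitors did. *Sox17* stood at 12.09, 12.29 and 12.63 in HE, at 10.67, 10.90 and 10.45 in HE2, at 6.89 and 6.94 in progenitors and at 7.86, 8.84 and 8.31 in myeloid progenitors. No 2 neighbouring stages overlapped for *Sox17*, and its lowest level was in uninduced progenitors. *Sox18* stood at 13.51, 13.06 and 13.32 in HE, at 12.98, 12.52 and 12.34 in HE2, at 10.84 and 10.03 in progenitors and at 8.16, 9.75 and 9.22 in myeloid progenitors. *Sox18* was thus lowest in myeloid progenitors, unlike *Sox7* and *Sox17*, and its ranges in these groups did not overlap between neighbouring stages. The further uninduced progenitor array, on the slide of the myeloid arrays, held *Sox18* at 9.53, within the range of uninduced myeloid progenitors. In these bulk samples, fewer cells of a type and less RNA per cell cannot be told apart.

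**Figure D1:**
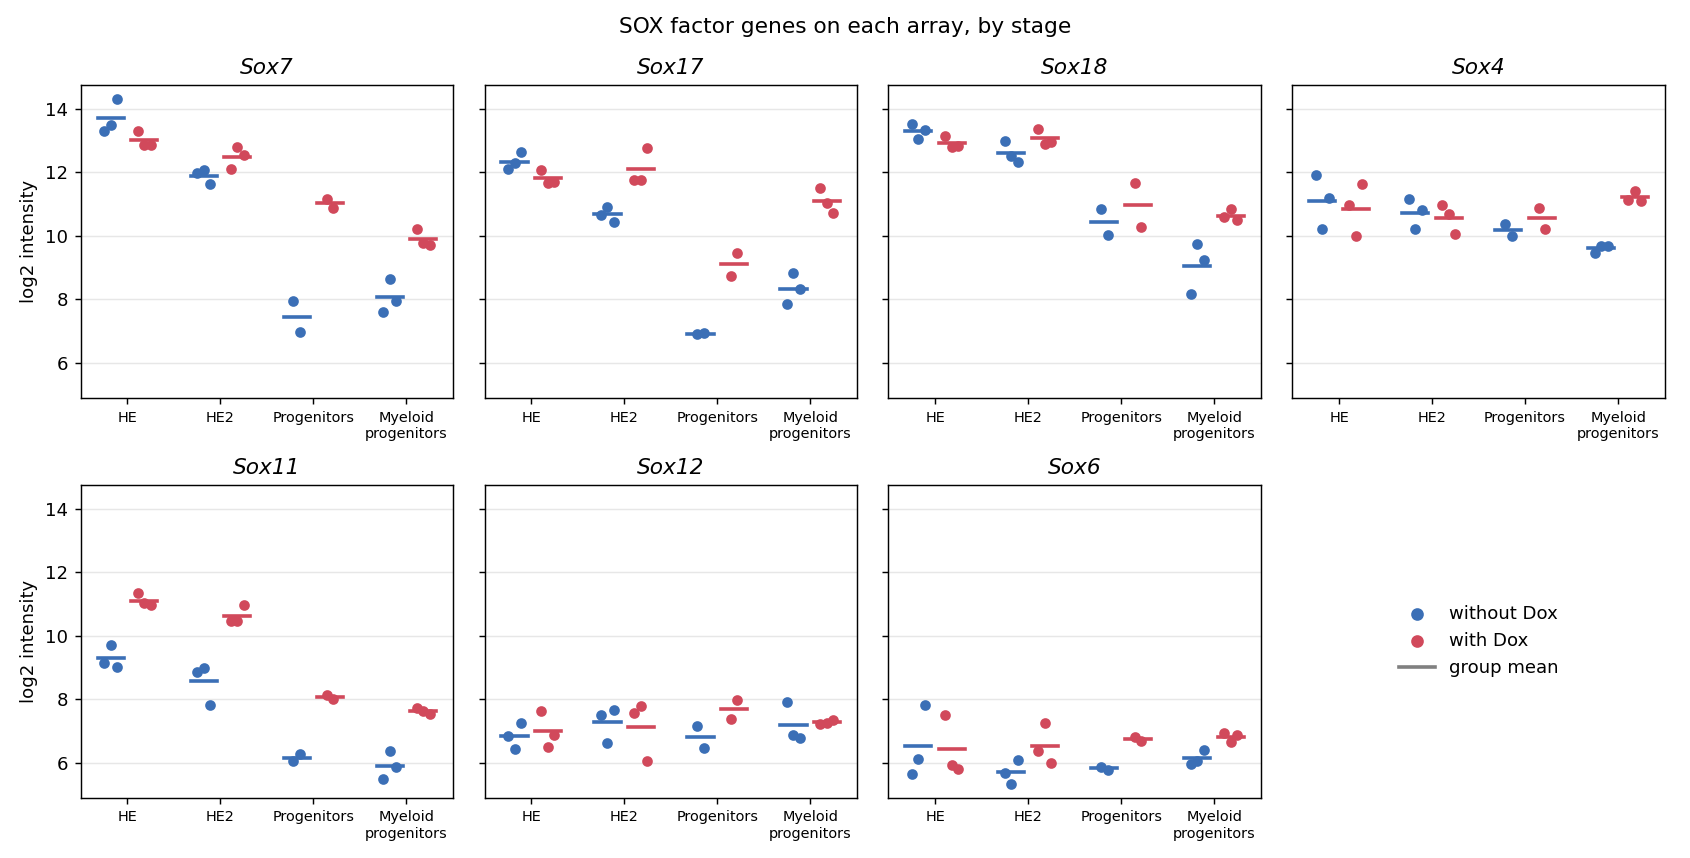
Log2 intensity of each member (vertical axis) on every array of the 4 stages (horizontal axis), without Dox in blue and with Dox in red, with a bar at the group mean. The 3 SOXF genes fell towards uninduced progenitors, *Sox11* was higher with Dox in every stage, and the arrays of *Sox12* and *Sox6* lay between 5.34 and 7.98.

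The threshold for a call was a 2-fold change or more together with P no higher than 0.001 by limma before adjustment. From uninduced HE to HE2, 2 of 7 members fell, against 2.67% of all genes tested. These were *Sox7*, which fell by 1.81 ± 0.31 (SE, 3.50-fold, adjusted P = 0.00104, limma), and *Sox17*, which fell by 1.67 ± 0.30 (SE, 3.17-fold, adjusted P = 0.00139, limma). By its other probe *Sox17* differed by -1.44 in this step and was not past the threshold. *Sox18* differed by -0.68 ± 0.36 (SE) and did not pass the test. From HE2 to progenitors, 4 of 7 members fell, against 3.62% of all genes. *Sox7* fell by 4.44 ± 0.35 (SE, 21.7-fold, adjusted P = 4.43e-07, limma), *Sox17* fell by 3.75 ± 0.34 (SE, 13.5-fold), *Sox18* fell by 2.18 ± 0.40 (SE, 4.52-fold) and the SOXC gene *Sox11* fell by 2.40 ± 0.31 (SE, 5.28-fold). Without uninduced progenitor array 2 *Sox18* differed by -1.77, not past the threshold (adjusted P = 0.0563, limma). *Sox4*, *Sox12* and *Sox6* did not pass in either step.

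From uninduced progenitors to uninduced myeloid progenitors, 1 of 7 members rose, against 7% of all genes, the median of which lay at -0.12. This was *Sox17*, by 1.42 ± 0.34 (SE, 2.67-fold, adjusted P = 0.00362, limma). All uninduced myeloid arrays lay on slide 3, and the 2 uninduced progenitor arrays of the group on slides 1 and 2. The further uninduced progenitor array lay on slide 3 and held *Sox17* at 7.19, below the 3 uninduced myeloid arrays there, whose mean was 1.14 higher. With the slide as a block, which the 2 induced progenitor arrays make possible, the difference of *Sox17* was 0.71 ± 0.62 (SE, adjusted P = 0.700, limma), and by its other probe it was 1.19 (adjusted P = 0.0354, limma) and not past the threshold. It did not pass either without uninduced myeloid progenitor array 2 (1.17) or array 3 (1.43), or without uninduced progenitor array 1 (1.39) or array 2 (1.44). *Sox18* differed by -1.39 ± 0.40 (SE) in this step and did not meet the threshold (adjusted P = 0.0133, limma).

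With Dox, the SOXF genes differed most from uninduced cells in the 2 progenitor stages. *Sox7* stood at 13.31, 12.86 and 12.85 on the induced HE arrays, at 12.10, 12.81 and 12.55 in HE2, at 11.17 and 10.88 in progenitors and at 10.22, 9.76 and 9.70 in myeloid progenitors. Induced and uninduced HE overlapped for *Sox7*, while the 3 other stages did not and were higher with Dox. *Sox17* stood at 12.08, 11.67 and 11.68 in induced HE, at 11.75, 11.76 and 12.77 in HE2, at 8.73 and 9.47 in progenitors and at 11.52, 11.02 and 10.73 in myeloid progenitors. Every induced HE array was below every uninduced one for *Sox17*, and in the 3 later stages every induced array was above. *Sox18* stood at 13.15, 12.80 and 12.84 in induced HE, at 13.36, 12.88 and 12.97 in HE2, at 11.67 and 10.28 in progenitors and at 10.59, 10.83 and 10.49 in myeloid progenitors. For *Sox18* the induced and uninduced arrays overlapped in HE, HE2 and progenitors and did not overlap in myeloid progenitors.

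Dox called none of the SOXF genes in HE, where *Sox7* differed by -0.70 ± 0.31, *Sox17* by -0.53 ± 0.30 and *Sox18* by -0.37 ± 0.36 (SE). *Sox7* and *Sox17* differed within slide 1 by -0.09 and -0.11 and within slide 2 by -1.45 and -0.96. Over all 7 members, 1 rose with Dox in HE, against 4.7% of genes tested. In HE2 2 members rose (5.17% of genes), 3 did so in progenitors (3.03%) and 5 in myeloid progenitors (5.13%). At the same threshold 0 of 7 members fell at each stage by limma, where 2.39, 2.05, 0.704 and 1.18% of genes fell, and at an unadjusted P under 0.05 1 member (*Sox7* in HE) was lower and 0 were at the later stages. The arrays with and without Dox did not overlap for 2 members in HE, 3 in HE2, 5 in the progenitor arrays and 6 in the myeloid ones, whereas 25.2, 32.3, 49 and 46.6% of all genes did not overlap.

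*Sox17* rose with Dox in HE2 by 1.42 ± 0.30 (SE, 2.68-fold, adjusted P = 0.00281, limma), by 0.96 within slide 1 and 1.82 within slide 2. Without uninduced HE2 array 3 the difference was 1.31, without induced HE2 array 3 it was 1.08, and by the other probe 1.37, none of them past the threshold. In progenitors, *Sox17* rose by 2.18 ± 0.37 (SE, 4.53-fold, adjusted P = 0.00120, limma) and *Sox7* by 3.57 ± 0.39 (SE, 11.9-fold, adjusted P = 1.57e-05, limma). Within slide 1, these differences were 1.84 and 3.22. The rise of *Sox17* in progenitors was 1.62 by its other probe and 1.84 with the slide as a block, not past the threshold in either.

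In myeloid progenitors all 3 SOXF genes rose within 12 h of Dox, on a single slide. *Sox17* rose by 2.75 ± 0.30 (SE, 6.74-fold, adjusted P = 5.09e-06, limma), *Sox7* by 1.83 ± 0.31 (SE, 3.56-fold, adjusted P = 0.000510, limma) and *Sox18* by 1.59 ± 0.36 (SE, 3.01-fold, adjusted P = 0.00556, limma). The rise of *Sox18* did not pass without uninduced array 1 (1.15), induced array 1 (1.62) or induced array 2 (1.49). Induced myeloid progenitors held *Sox17* between 10.73 and 11.52, which overlaps the range of uninduced HE2, whereas their *Sox7*, from 9.70 to 10.22, lay below uninduced HE2.

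From induced HE to induced HE2 no member was called at the threshold by limma, against 3.1% of genes in either direction, and 0 of 7 members had an unadjusted P under 0.05 there. *Sox17* differed by 0.28 ± 0.30 (SE) and *Sox7* by -0.52 ± 0.31 (SE) in this step. As a test of the difference between the steps with and without Dox, the interaction given below passed for *Sox17*, whereas for *Sox7* it was 1.29 ± 0.44 (SE, adjusted P = 0.264, limma) and did not pass. From induced HE2 to induced progenitors 4 members fell, against 5.34% of genes, of which *Sox17* fell by 3.00 ± 0.34, *Sox11* fell by 2.55 ± 0.31, *Sox18* fell by 2.09 ± 0.40 and *Sox7* fell by 1.46 ± 0.35 (SE). Without induced progenitor array 2 *Sox18* differed by -1.40, not past the threshold. *Sox7* differed by -1.30 without induced HE2 array 2, by -1.43 without induced HE2 array 3, by -1.61 without induced progenitor array 1 and by -1.32 without induced progenitor array 2, none of them past the threshold. With the replicate number as a block the difference of *Sox7* was -1.43 (adjusted P = 0.0260, limma) and did not pass either. With the slide as a block *Sox18* differed by -1.64 and *Sox7* by -1.33. The scan day as a block gave -1.40 for *Sox18* and -1.32 for *Sox7*, and neither gene passed the threshold with either block.

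**Figure D2:**
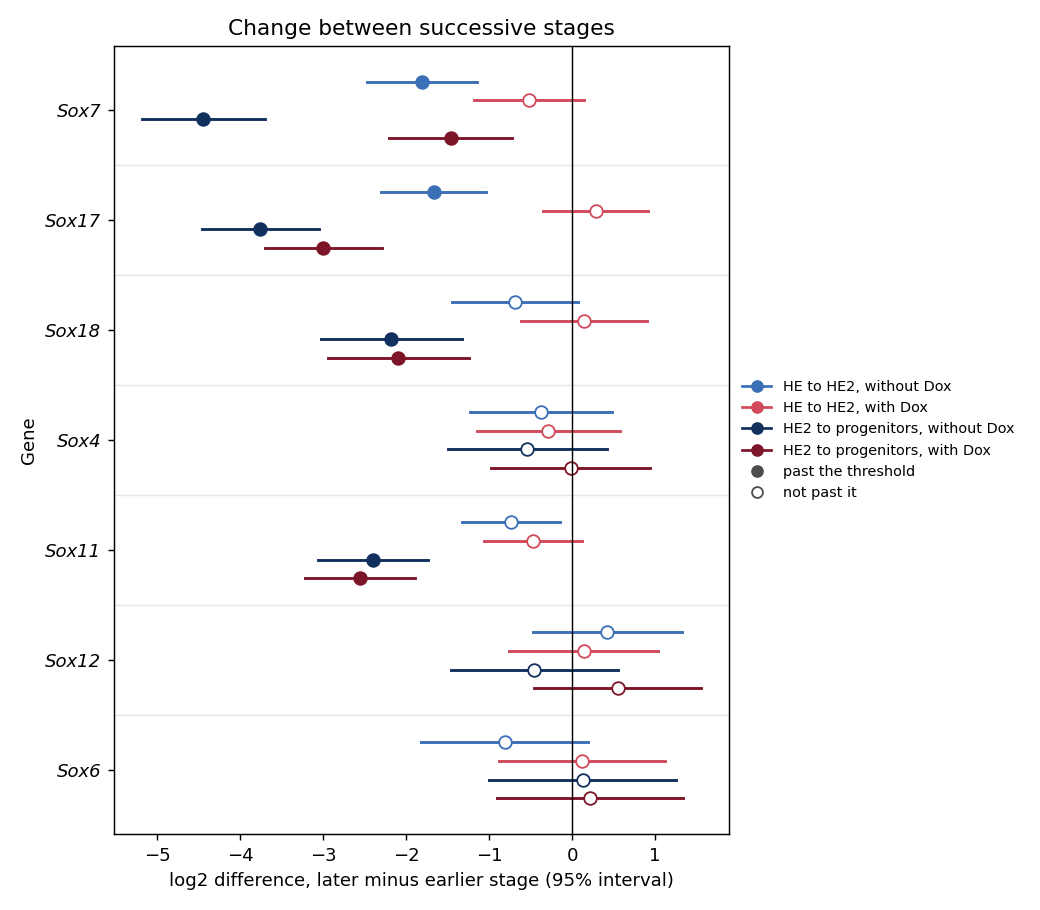
Log2 difference between successive stages (horizontal axis, later minus earlier) for each member, without Dox in blue and with Dox in red, with 95% intervals and filled points where the threshold was passed. In the step from HE to HE2 *Sox7* and *Sox17* passed the threshold without Dox and not with it, and from HE2 to progenitors *Sox7* fell by 4.44 without Dox and fell by 1.46 with it.

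Differences between stages in the response to Dox were tested as interaction terms. The response of *Sox17* was higher in HE2 than in HE by 1.95 ± 0.43 (SE, adjusted P = 0.0342, limma), the only member called among 7, against 0.625% of genes. This difference was 1.72 by the other *Sox17* probe (adjusted P = 0.176, limma) and no longer past the threshold. The response of *Sox7* was higher in progenitors than in HE2 by 2.98 ± 0.50 (SE, adjusted P = 0.0143, limma), again 1 of 7 members, against 0.237% of genes. Between myeloid progenitors and HE, 2 of 7 members responded more in the former, against 2.96% of genes, namely *Sox17* by 3.28 ± 0.43 (SE, adjusted P = 0.000128, limma) and *Sox7* by 2.53 ± 0.44 (SE, adjusted P = 0.00148, limma). *Sox18* differed by 1.96 ± 0.51 (SE) between these stages, just outside the threshold (adjusted P = 0.0239, limma). Culture, time on Dox and slide all differ between HE and myeloid progenitors and cannot be told apart from the stage.

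*Sox11* was the member that rose with Dox at every stage. It stood at 9.15, 9.71 and 9.00 in uninduced and 11.33, 11.03 and 10.95 in induced HE, and at 8.85, 8.99 and 7.82 in uninduced and 10.44, 10.47 and 10.98 in induced HE2. In progenitors it stood at 6.05 and 6.26 without and 8.14 and 8.01 with Dox, and in myeloid progenitors at 5.48, 6.35 and 5.86 without and 7.72, 7.62 and 7.52 with Dox. The induced arrays lay above the uninduced ones in all 4 stages with no overlap. Only 1 of the 3 uninduced myeloid progenitor arrays was well above background for *Sox11*. The rises were 1.82 ± 0.28 in HE (SE, 3.52-fold, adjusted P = 0.000171, limma), 2.08 ± 0.28 in HE2 (SE, 4.22-fold), 1.92 ± 0.34 at the progenitor stage (SE, 3.79-fold) and 1.72 ± 0.28 at the myeloid stage (SE, 3.30-fold, adjusted P = 0.000308, limma). The last value is set against a group with 1 of 3 arrays well above background, and may understate the rise.

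Genes called higher with Dox in all 4 stages numbered 108, or 0.71% of those tested, and *Sox11* was the only member among them. The *Sox11* response differed between HE2 and HE by 0.26 (95% interval -0.57 to 1.09) and between progenitors and HE2 by -0.15 (-1.09 to 0.78), and neither passed the test. The intervals leave room for differences of up to about 1 on the log2 scale in either direction. Between myeloid progenitors and HE the difference was -0.09 and did not pass, but no interval is given because of the dim uninduced myeloid arrays. Within slides, the rise of *Sox11* was 1.90 and 1.99 in HE, 1.52 and 2.90 in HE2 and 2.09 in progenitors on slide 1. A further probe of *Sox11* gave rises of 1.57, 2.03, 1.87 and 1.31 in the 4 stages, and all passed. From HE2 to progenitors *Sox11* fell by 2.40 without Dox and fell by 2.55 with it.

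**Figure D3:**
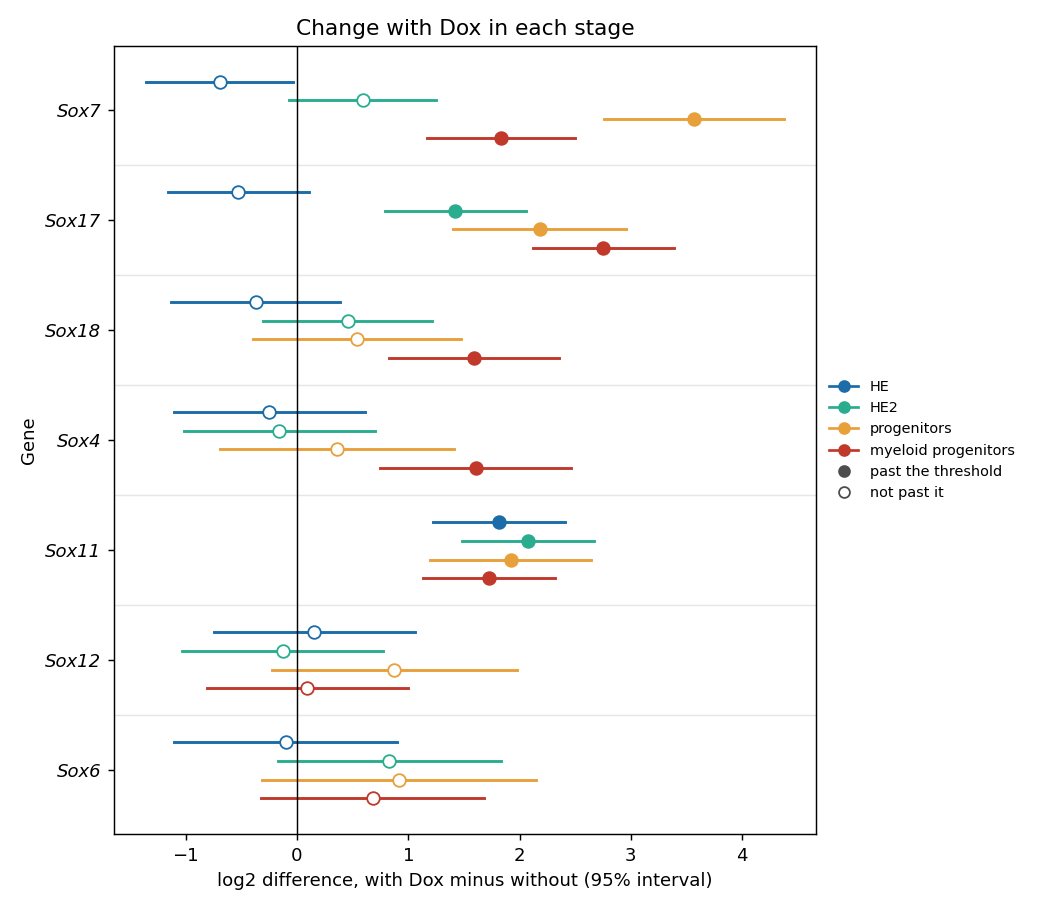
Log2 difference with Dox minus without (horizontal axis) for each member at the 4 stages, with 95% intervals and filled points where the threshold was passed. *Sox11* rose in all 4 stages, by 1.72 to 2.08, and the SOXF genes had their negative differences in HE.

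*Sox4*, a SOXC gene active in many progenitor cells, varied within groups more than it did between most of them. Its uninduced HE arrays stood at 11.91, 10.20 and 11.20, and the induced ones at 10.96, 9.98 and 11.63. In HE2 it stood at 11.17, 10.21 and 10.81 without and 10.96, 10.69 and 10.06 with Dox, and in progenitors at 10.38 and 9.99 without and 10.89 and 10.21 with Dox. These 3 stages overlapped between induced and uninduced arrays. In myeloid progenitors *Sox4* stood at 9.46, 9.68 and 9.68 without and 11.12, 11.41 and 11.10 with Dox, with no overlap, and rose by 1.61 ± 0.41 (SE, 3.04-fold, adjusted P = 0.0119, limma). Its P of 0.000986 lay just inside the threshold, and 16 of the 22 fits without 1 array, in any group, put it outside. The adjusted P in those fits was between 0.0130 and 0.0510. Those that kept it left out uninduced HE array 1 or 2, induced HE array 2 or 3, uninduced HE2 array 2 or induced HE2 array 3. The 2 probes of *Sox4* correlated at only 0.446 across 22 arrays. Both gave a rise in myeloid progenitors (1.55 by the other probe), whereas in HE the differences were -0.25 and -0.77.

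*Sox12*, the SOXC gene with the narrowest range, stood between 6.06 and 7.98 over the 22 arrays and was well above background on each. In the order of the stages its differences with Dox were 0.16, -0.13, 0.88 and 0.09, none past the threshold. The 2 induced progenitor arrays, from 7.38 to 7.98, lay above the 2 uninduced ones, from 6.46 to 7.15.

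*Sox6* stood between 5.34 and 7.81 and had 1 array each in induced HE and uninduced HE2 that was not well above background. Dox shifted its means by -0.10, 0.83, 0.92 and 0.68 from HE to myeloid progenitors, and none of these differences passed. In progenitors and in myeloid progenitors the induced arrays were above the uninduced ones without overlap. Of 6 red cell genes linked to *Sox6*, which include the embryonic globin genes it is known to repress, 2 rose with Dox in HE, 3 in HE2, 2 at the progenitor stage and 0 at the myeloid one, and none fell. Of all genes tested 4.7, 5.17, 3.03 and 5.13% rose and 2.39, 2.05, 0.704 and 1.18% fell at these stages. The embryonic globin gene *Hbb-y* rose by 3.23 in HE, 4.34 in HE2 and 4.47 in progenitors, and differed by -0.11 in myeloid progenitors. *Hbb-bh1*, another embryonic globin gene, rose by 2.69, 1.90 and 1.21 in the first 3 stages and differed by -0.03 in the fourth. In uninduced myeloid progenitors both genes lay close to the brightest probe of the array at 18.79, *Hbb-y* from 18.55 to 18.65 and *Hbb-bh1* at 18.73 on all 3 arrays, so that no rise could be measured at that stage. In induced progenitors *Hbb-bh1* reached 18.35 to 18.79, where its rise of 1.21 is limited in the same way. The globin genes are close relatives whose probes could share signal. A further embryonic globin gene of the list, *Hba-x*, differed by -0.46, 0.08, 0.45 and -0.47 from HE to myeloid progenitors, none past the threshold. *Klf1* and *Bcl11a* were not called with Dox at any stage. *Gata1*, a master regulator of red cells, rose by 2.07 in HE2. Its differences of 1.37 in HE and 1.51 in progenitors did not pass, and neither did the test of the response in HE2 against HE or in progenitors against HE2. The medians of the list at the 4 stages were 0.96, 1.04, 0.83 and -0.27, against -0.01, -0.03, -0.04 and -0.02 for all genes.

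Across the 8 groups, mean levels were highest in uninduced HE for the 3 SOXF genes, in induced HE for *Sox11*, in induced myeloid progenitors for *Sox4* and *Sox6*, and in induced progenitors for *Sox12*. For *Sox17* the next were induced HE2 and induced HE, whose ranges overlapped with each other and, for induced HE2, with uninduced HE. Its levels then went down through induced myeloid progenitors and uninduced HE2, which overlapped, induced progenitors and uninduced myeloid progenitors, which overlapped too, to uninduced progenitors, which stood apart. For *Sox7* every neighbouring pair in the order stood apart except uninduced and induced HE at the top and uninduced myeloid progenitors and uninduced progenitors at the bottom. For *Sox18* the first 4 groups, all of HE and HE2, overlapped in turn, as did induced progenitors, induced myeloid progenitors and uninduced progenitors below them. For *Sox4* all neighbours but the last pair overlapped.

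Group means of *Sox7* correlated with those of *Sox18* at 0.92, *Sox11* at 0.90 and *Sox17* at 0.90 over the 8 groups, which share arrays, slides and normalization. The correlation of *Sox4* with these 4 genes was 0.59 to 0.74, and that of *Sox12* was -0.25 to -0.01. The 3 genes most like *Sox7* were *Zfp532*, *Mtpn* and *Tmem63b* (0.98 to 0.99), and those most like *Sox17* were *Dlc1*, *Serpina3i* and *Sparc* (0.99 for each). *Sox18* was most like *Lrp11*, *Hspg2* and *Cnn3* (0.99 for each), among 223 genes with a correlation over 0.95, and *Sox11* was most like *Gpr182*, *Ramp3* and *Socs5* (0.99 for each), among 201. *Sox4*, *Sox6* and *Sox12* had 1, 1 and 0 genes over 0.95. The nearest to *Sox4* were *9930012K11Rik*, *Stox2* and *Krt19*, to *Sox12* *Vbp1*, *Rab10os* and *Zfp783*, and to *Sox6* *Baz2b*, *Ssh2* and *Ccdc6*.

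Of 20 endothelial and arterial genes linked to SOXF factors as targets or partners, 2 rose and 2 fell with Dox in HE, 7 rose and 1 fell in HE2, 8 rose in progenitors and 12 rose in myeloid progenitors, with none falling in the last 2 stages. Among all genes tested 4.7, 5.17, 3.03 and 5.13% rose with Dox at the 4 stages, and 2.39, 2.05, 0.704 and 1.18% fell. The list's medians were 0.18, 1.05, 1.32 and 1.67, where all genes had -0.01, -0.03, -0.04 and -0.02. *Robo4*, a guidance receptor of vascular endothelium, rose in all 4 stages by 1.72, 2.64, 3.09 and 3.35, and *Cldn5*, a tight junction protein of endothelium, by 2.34, 3.20, 4.02 and 2.81. *Efnb2*, the ligand that marks arteries, and *Notch4*, an endothelial Notch receptor, rose in HE2, progenitors and myeloid progenitors, *Efnb2* by 1.77, 2.41 and 1.81 and *Notch4* by 1.54, 1.49 and 1.69. *Gja4*, an arterial gap junction gene, fell by 2.02 in HE, rose by 1.38 in progenitors and 1.38 in myeloid progenitors, and its response was higher in HE2 than in HE by 2.00 and in myeloid progenitors than in HE by 3.40. *Unc5b*, a netrin receptor of arteries, fell by 3.21 in HE and fell by 1.88 in HE2. *Cdh5*, *Erg*, *Kdr* and *Tek* were called in myeloid progenitors only, where they rose by 1.69, 2.08, 2.24 and 3.07. In HE2 and progenitors *Kdr* differed by 1.12 and 1.33 and *Tek* by 1.73 and 2.43, not past the threshold. The response in myeloid progenitors was higher than in HE for *Cdh5*, *Erg* and *Kdr*. For *Tek* this difference was 2.11 and did not pass.

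**Figure D4:**
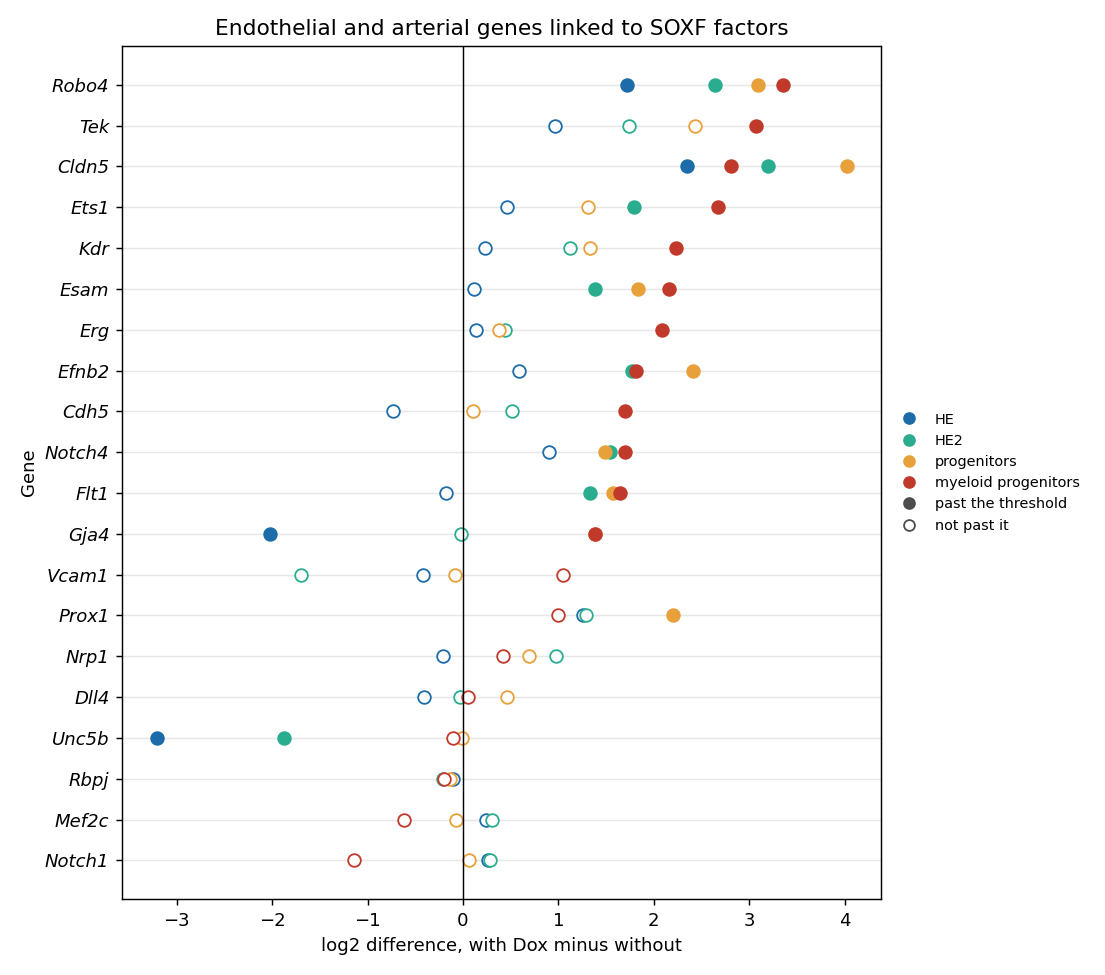
Log2 difference with Dox minus without (horizontal axis) for the 20 endothelial and arterial genes linked to SOXF factors (vertical axis), with a point per stage that is filled where the threshold was passed. In myeloid progenitors 12 of 20 rose, against 5.13% of all genes tested, and in HE *Gja4* fell by 2.02 and *Unc5b* fell by 3.21.

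Without Dox, 7 of these 20 genes fell from HE to HE2 and 11 from HE2 to progenitors, and none rose in either step. Among all genes tested, 2.67% and 3.62% fell in these steps. With Dox, 1 (*Vcam1*) fell from HE to HE2, where 3.1% of genes were called in either direction. From HE2 to progenitors 8 fell with Dox, against 5.34% of genes. From HE to HE2 the interaction of step and Dox passed for 2 of the 20, against 0.625% of genes. These were *Flt1* (adjusted P = 0.0571, limma) and *Gja4* (adjusted P = 0.0118, limma). Of these only *Gja4* was among the 7 that fell without Dox. No gene of the 20 passed it from HE2 to progenitors. Without Dox *Robo4* fell by 1.62 and then fell by 3.69, and *Efnb2* fell by 1.73 and then fell by 3.09. A list of 6 Wnt genes (*Ctnnb1*, which encodes β-catenin, *Tcf7*, *Tcf7l1*, *Tcf7l2*, *Lef1* and *Axin2*) was taken because SOX17 protein can bind β-catenin. Of these *Tcf7l1* alone was called with Dox, with rises of 2.25 in progenitors and 1.89 in myeloid progenitors. Without Dox *Tcf7l1* fell by 2.04 from HE to HE2 and fell by 2.88 from HE2 to progenitors. Of 3 genes linked to SOXC factors, *Tead2*, *Tubb3* and *Cebpa*, none was called with Dox, whereas from uninduced HE2 to progenitors *Tead2* and *Tubb3* fell and *Cebpa* rose. Of the 13 other SOX family genes on the array 6 were bright enough to test (*Sox1*, *Sox3*, *Sox10*, *Sox13*, *Sox14* and *Sox21*) and none was called in any comparison.

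Markers of other cell types moved with these groups. All 6 endothelium markers (*Cdh5*, *Pecam1*, *Tek*, *Kdr*, *Tie1* and *Emcn*) were measured, and their mean level was 10.27 to 10.38 in uninduced and 11.55 to 11.84 in induced progenitors, and 9.91 to 10.46 in uninduced and 11.93 to 12.31 in induced myeloid progenitors. With Dox 0 of them rose in HE, 1 in HE2 and 1 in progenitors (*Emcn* in both), and 4 in the myeloid stage, against 4.7, 5.17, 3.03 and 5.13% of all genes. The mean of 7 muscle and mesenchyme markers was 11.53 to 12.48 in uninduced and 10.39 to 10.77 in induced HE, and 10.15 to 11.51 in uninduced and 9.03 to 9.19 in induced HE2. Of these 7 markers 3 fell with Dox in HE and 4 in HE2, against 2.39 and 2.05% of all genes. In progenitors the mean of these markers was 8.98 to 9.24 without and 8.56 to 9.43 with Dox. In myeloid progenitors it was 7.51 to 8.23 without and 8.34 to 8.82 with Dox. *Tnnt2* rose with Dox in both of these later stages, and none of the 7 fell in them. The mean of 7 blood markers ranged from 8.54 to 8.67 in uninduced HE to 11.80 to 11.86 in uninduced progenitors. With Dox, *Itga2b* fell by 3.21 in HE, and *Spi1*, a master regulator of myeloid cells, fell by 2.73 in HE2 and fell by 2.23 in progenitors, while *Gata1* rose in HE2. Of 5 ES cell markers, *Nanog* (group means 7.02 to 9.24) and *Dppa5a* (6.10 to 7.57) were well above background on every array of the 8 groups, *Pou5f1* and *Zfp42* on some, and *Sox2* on 1. The first 2 were bright enough to test and neither was called with Dox, while *Dppa5a* rose by 1.23 from uninduced progenitors to myeloid progenitors. The part of these cells in the SOX differences was not tested.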

How the data were processed

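RNA of 4 stages with and without Dox was measured on 23 arrays. The authors deposited spot intensity and background as read from the scans, made with Agilent Feature Extraction (10.7.3.1 in the file headers, 10.7.1.1 in the submitters' processing notes), with no normalization between arrays. They also deposited log2 values, background corrected and quantile normalized, used as an alternative. These lie close to an offset of 50 (median difference 0.01) and less so to the stated 16 (0.60).

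Median intensities were background corrected (normexp, offset 16) and quantile normalized over 23 arrays, without 3671 control spots and without outlier spots. Of 55681 probes, 26582 matched a gene in the RefSeq table (GRCm38.p6), used for names since the array was annotated on another build, and the probe with the highest mean stood for a gene. A gene entered the tests if any array reached 6.5 on the log2 scale. With group means as coefficients, 22 arrays were fitted by limma 3.58.1 in R 4.3.3 (14 residual degrees of freedom), and adjusted P follows Benjamini and Hochberg over all genes tested. Left out of the fit was 1 uninduced progenitor array, labelled both technical replicate and replicate 3, and induced myeloid progenitor array 3, also labelled in both ways, was kept.

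The members, the gene lists and the tests were chosen with earlier results of these data known. Named genes were the members, a part of the listed genes and the 3 genes most like each member by correlation of group means. Not every listed gene past the threshold was named. By replicate number, uninduced HE and HE2 arrays deviated together (0.394, 0.795 and 0.608). Between induced and uninduced arrays of HE and of HE2 these correlations ranged from -0.534 to 0.694. The main fit was unpaired, and replicate numbers were taken as pairs only in the alternative with a replicate block. The fit was tested on simulated data. Alternatives were other background corrections, scalings, filters, probes, thresholds and blocks and leaving out each array.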

Additional observations from a re-analysis of the deposited data

Results flagged for a closer look

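The response to Dox differed between stages by an interaction test in 4 cases. The *Sox17* response was 1.95 higher in HE2 than in HE, with Dox differences of -0.53 in HE and 1.42 in HE2, and 3.28 higher in myeloid progenitors than in HE. The *Sox7* response was 2.98 higher in progenitors than in HE2 and 2.53 higher in myeloid progenitors than in HE. HE and HE2 lay on the same slides with the same time on Dox, but Dox was not evenly spread over these slides. For each of the 2 stages, slide 1 held 2 uninduced arrays and 1 induced array, and slide 2 held 1 and 2. Within slide 1 *Sox17* differed with Dox by -0.11 in HE and 0.96 in HE2, and within slide 2 by -0.96 and 1.82. Time on Dox and slide both differ between myeloid progenitors and HE and cannot be told apart from the stage. Progenitor and HE2 arrays had the same time on Dox, with 1 induced progenitor array on slide 3. Endothelium markers differed between the stages, and their part was not tested.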

How the results depend on the processing

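Of 26 changes called among the 7 members, 16 passed the threshold under all of the 38 alternatives that gave a value for them, and of 965 values 57 did not pass and 0 turned direction. A 2-fold change alone, counted among these, is part of the threshold and could not end a call. Leaving out an array of a group not compared kept the difference as it was and changed only the shared estimate of spread. Counted once per member and comparison, calls with Dox numbered 11 (5 genes), and 9 to 11 without 1 array. Between stages without Dox there were 7 (5 to 7 without 1 array) and with Dox 4 (2 to 4 without 1 array), the latter with 2 when each comparison was fitted on its own arrays, 2 with the slide and 2 with the scan day as a block. Differences in response numbered 4 (4 to 5 without 1 array) and 8 at a 2-fold change alone. Normalization of the early and myeloid arrays apart gave no value for comparisons across them. The replicate block gave 11, 7, 3 and 5 calls in the same order and changed neither call between uninduced HE and HE2, whose numbers pair. Of the called changes it ended those of *Sox17* from progenitors to myeloid progenitors (1.30, adjusted P = 0.0419, limma) and of *Sox7* from induced HE2 to progenitors, and it added *Sox18* from uninduced progenitors to myeloid progenitors (-1.70) and for the response in myeloid progenitors against HE (1.96). Fits on the arrays of each comparison alone ended the calls of *Sox17* with Dox in HE2 and from progenitors to myeloid progenitors, of *Sox18* with Dox in myeloid progenitors and of *Sox7* and *Sox18* from induced HE2 to progenitors, and the cause was not tested. Scaling to the 75th percentile moved the median of all genes from progenitors to myeloid progenitors to -0.25. Without induced myeloid progenitor array 3, *Sox4* alone lost its call with Dox. Dim probes limit *Sox6*, *Sox12* and uninduced *Sox11*, and 2 arrays per group limit progenitors.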
